A study of Pimephales promelas with 139 samples.

Results

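Of 37085 transcripts counted in single fathead minnow larvae, 62 had an on/off pattern. Most larvae carried such a transcript either at a high level or at a small fraction of that level. The 62 transcripts were chosen by their measured levels. Counts were scaled to CPM, the count over the library's total times 1000000. The 90th percentile of a transcript's CPM over all larvae was called q, and a member had q of at least 3 CPM, at least 10% of larvae below 0.05q, at least 10% above 0.3q, and under 10% between these limits. A larva above 0.15q was called on for that transcript, and any other larva was called off. Of the 37085 transcripts, 24531 had q of at least 3 CPM, 269 of those also had enough larvae in the low and in the high range, and 62 of the 269 had few enough larvae between. The pattern itself is therefore a description of the selection and carries no test. The concentration and experiment labels took no part in the choice.

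The larvae belonged to a study of transcript markers of ethinyl estradiol, a synthetic estrogen. Larvae of Pimephales promelas, a small North American fish used in toxicity testing, were held in static exposures for 48 h from 48 h after hatching, and whole larvae of 96 h of age were sequenced one by one. Besides the 29 controls, groups were exposed to 0.12 ng/L (17 larvae), 1.2 ng/L (30 larvae), 2.5 ng/L (18 larvae), 5 ng/L (17 larvae) and 10 ng/L (28 larvae). Experiment 1 held 46 of the larvae, experiment 2 held 46 and experiment 3 held 47. Vessels and parents of the larvae are not stated, so a p-value measures the spread between libraries only. In a whole larva, fewer cells of a type and less RNA per cell cannot be told apart.

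On/off expression between individuals of one species is known as background from several kinds of genes: genes carried on only some haplotypes, genes whose alleles differ strongly in sequence, and genes used in one sex or in one physiological state. Estrogens act through nuclear estrogen receptors, and in fish liver the egg yolk precursor vitellogenin is the classic target. The identifiers in the count table carry no gene names, and 0 of the 64593 genes in the reference table match them, so no role is given to any transcript here, and tissue markers and vitellogenin could not be looked up. To which kind of gene the 62 transcripts belong was not tested.

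Library totals ran from 8756290 to 32906788 reads, with a median of 23453744, and q of 3 CPM stood for 26.3 reads in the shallowest library. Replicate 7 of the 2.5 ng/L group stood apart: it had reads in 30768 transcripts, against at least 34800 in each other library, and 13 of the 62 transcripts were on in it, against 19 to 40 in the others. Its total of 15453319 reads was not the lowest. The rule run without this larva returned 63 transcripts, among them all 62. Some results that it touches are given with and without it, and the others only with it.

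The separation between the states was wide for most of the 62 transcripts. The median level in off larvae was between 0 and 8.41% of the median level in on larvae, with a median over the transcripts of 0.464%. The lowest on larva was 1.06 to 50.7 times as high as the highest off larva, with a median of 4.34 times. For this ratio the highest off level was set to no less than a floor of 3 reads in the deepest off library. For 11 transcripts no larva at all lay between 0.05q and 0.3q, and for 24 the median off larva had 0 reads. Off did not always mean an absence of reads, since 9 transcripts had at least 1 read in every off larva.

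FMt039924 had the highest q of the set, 275 CPM. It was on in 27 larvae, at a lowest of 204 CPM, a median of 276 CPM and a highest of 390 CPM. In the other larvae it lay at a lowest of 0.777 CPM, a median of 3.67 CPM and a highest of 11.7 CPM. No larva fell between these ranges, and no off larva was at 0 reads. FMt043989 was on in 58 larvae between 29.1 and 158 CPM and stayed between 0.259 and 1.56 CPM in the rest. FMt044216 was on in 62 larvae between 43.8 and 189 CPM and off between 0.121 and 2.63 CPM. CPM takes no account of transcript length, so these values order larvae within a transcript and not one transcript against another.

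**Figure D1:**
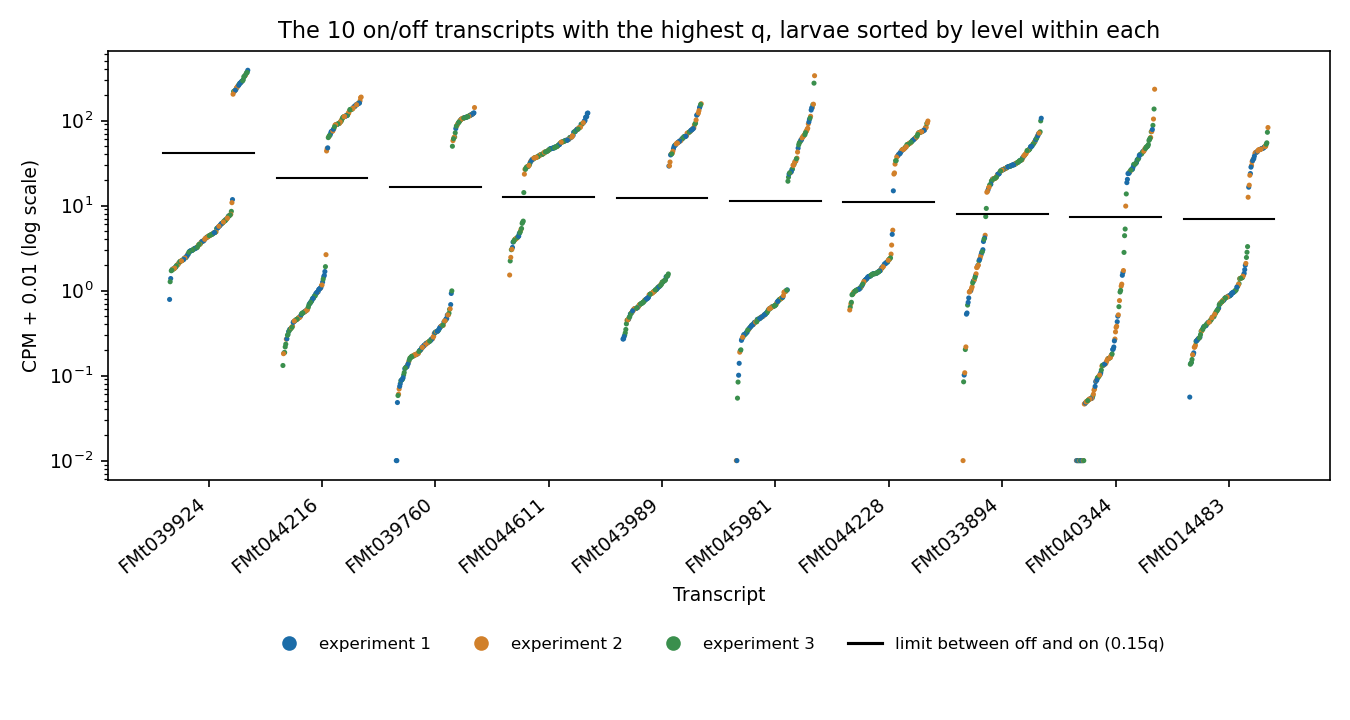
Level in each larva (one point each, coloured by experiment, log axis of CPM + 0.01) of the 10 transcripts with the highest q, with larvae sorted by level within each transcript and a black line at the limit of 0.15q. FMt039924 shows an empty range between 11.7 and 204 CPM, while FMt044611 and FMt033894 have larvae close to the line.

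The widest relative separation belonged to FMt039760. It was on in 40 larvae at 49.8 to 142 CPM with a median of 107 CPM, and off at 0 to 0.982 CPM with a median of 0.217 CPM. Its lowest on larva was 50.7 times as high as its highest off larva. The corresponding ratios were 48.8 for FMt045756, 33.3 for FMt045757, 33 for FMt043754 and 26.1 for FMt016494. FMt043754 reached at most 0.0865 CPM when off, below the floor of 3 reads. Its ratio was therefore taken to the floor, and the ratio to its highest off larva is larger. FMt016494 had 0 reads in 89 of its off larvae and lay between 5.89 and 16.8 CPM in the 15 larvae where it was on.

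Other members came closer to a graded pattern. FMt044611, FMt023774 and FMt017999 were just inside the rule with 13 larvae, or 9.35%, between the limits. FMt022461 and FMt000793 with 14 larvae, or 10.1%, and FMt032030 with 15 larvae were just outside it. FMt033894 was on in 98 larvae at 9.24 to 106 CPM, with a highest off larva at 7.40 CPM, so its states nearly touched. FMt046134 had the narrowest separation, with a lowest on larva 1.06 times its highest off larva.

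The share of larvae in which a member was on ran from 10.8% to 89.9%, with a median of 44.6%. FMt016494 was on in 15 larvae, and FMt028371 and FMt045757 were on in 16 each. At the other end, FMt036173 was on in 125 larvae, FMt017999 in 121 and FMt041211 in 115. There were 35 members on in under 50% of larvae and 27 on in over 50%. For 60 members both states occurred in each of the 3 experiments, and for 58 both occurred in each of the 6 concentration groups.

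The rule was repeated in each experiment by itself. Run on experiment 1 alone, the rule found 69 transcripts, of which 49.3% met it again in experiment 2 and 52.2% in experiment 3. The 57 transcripts found in experiment 2 alone met it in 59.6% of cases in experiment 1 and 59.6% in experiment 3. The 68 found in experiment 3 alone met it in 52.9% of cases in experiment 1, and 34 of them met it in experiment 2. Among all transcripts with q of at least 3 CPM in the experiment in question, 0.233% to 0.283% met the rule. Of the 62 members, 24 met it in each of the 3 experiments separately, and each member met it in at least 1. The 62 were chosen on these same larvae, so these last counts describe the choice and are no replication.

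**Figure D2:**
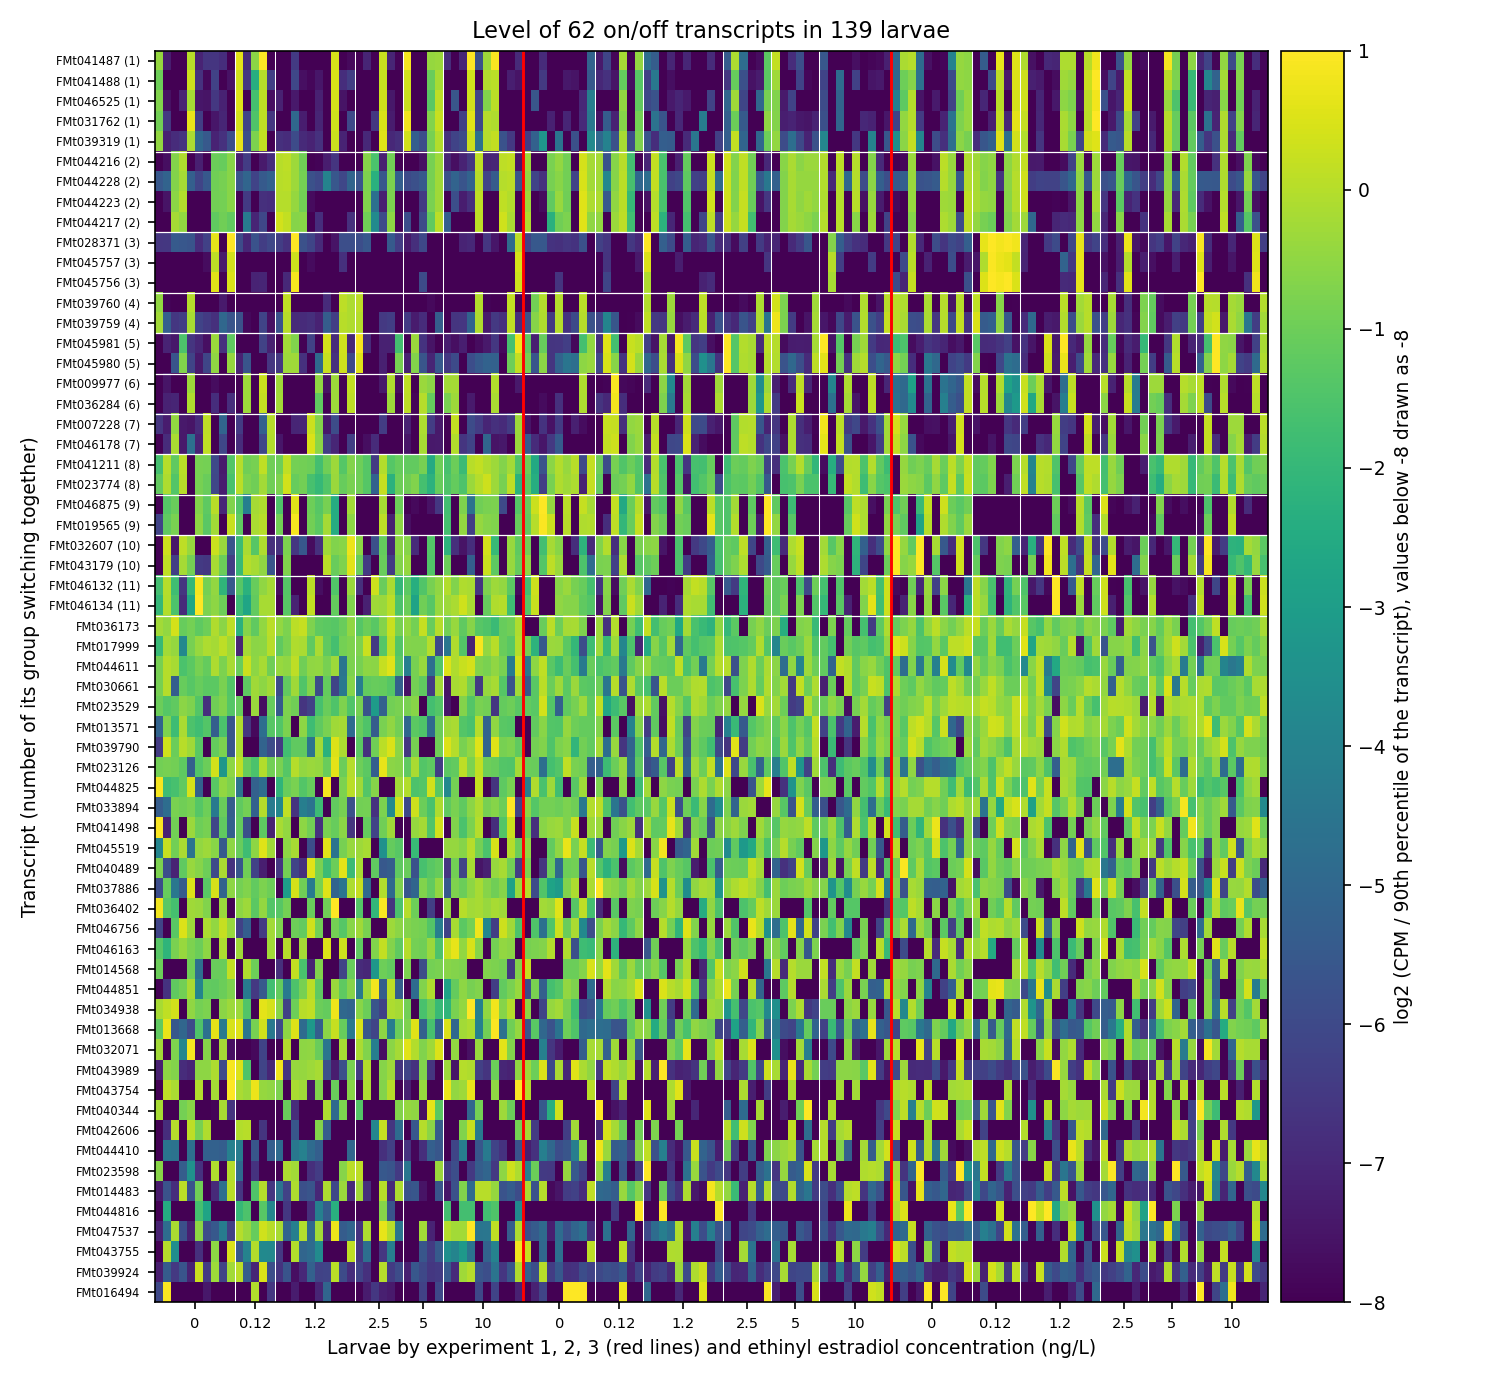
Level of each of the 62 transcripts (rows) in each larva (columns, by experiment and concentration in ng/L), as log2 of CPM over the transcript's q, with dark for off and yellow for high; the number in brackets gives the group of transcripts that switched together. Rows of 1 group share the same pattern of dark and light columns, as in the 5 rows at the top that were on in 35 larvae.

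Many members switched together. Transcripts were joined where their states differed in at most 6 larvae (under 5%), which joined 28 members into 11 groups and left 34 members alone, making 45 separate switches. In 8 groups, with 20 members, each larva had all the group's transcripts on or all off. Of the 27 pairs of transcripts within groups, 21 differed in 0 larvae. The next closest pair that was not joined, FMt013571 and FMt039790, differed in 11 larvae, and FMt044851 and FMt046756 differed in 14. Leaving out replicate 7 of the 2.5 ng/L group also gave 28 joined members.

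The largest group held FMt041487, FMt041488, FMt046525, FMt031762 and FMt039319, which were all on in 35 larvae and all off in 104. FMt041487 lay between 4.25 and 23.3 CPM in the on larvae and between 0 and 0.634 CPM in the off larvae. FMt041488 lay between 1.49 and 16.4 CPM in the on larvae and reached at most 0.528 CPM in the off larvae. FMt046525 ran from 1.71 to 11.3 CPM when on, with off larvae at 0.373 CPM or less, and FMt031762 from 2.20 to 13.2 CPM, with off larvae at 0.327 CPM or less. In each of the 5 transcripts the on and off larvae were the same individuals. FMt041487 and FMt041488 are consecutive identifiers, and the other identifiers of the group are not near them.

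A second group held FMt044216, FMt044228, FMt044223 and FMt044217, whose identifiers span 12 numbers. All 4 were on in 61 larvae and off in 77. The remaining larva was replicate 7 of the 2.5 ng/L group, in which FMt044216 had 47.7 CPM and FMt044228 14.9 CPM, both on, while FMt044223 had 1.42 CPM and FMt044217 0.388 CPM, both off. FMt044228 ran from 14.9 to 98.6 CPM when on and from 0.581 to 5.12 CPM when off.

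The third group was rarer: FMt028371, FMt045757 and FMt045756 were on in 16 larvae and off in 123. FMt028371 had 13.4 to 55.8 CPM when on, with a median of 36.6 CPM, and at most 0.724 CPM when off. FMt045757 had 7.01 to 14.1 CPM when on and at most 0.211 CPM when off, and FMt045756 had 4.48 to 13 CPM when on and at most 0.0918 CPM when off. The fourth, FMt039760 with FMt039759, consecutive identifiers, was on in 40 larvae.

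The other 7 groups were pairs. FMt045981 with FMt045980 was on in 48 larvae, FMt009977 with FMt036284 in 40, FMt007228 with FMt046178 in 33, FMt041211 with FMt023774 in 115 and FMt032607 with FMt043179 in 71, each with no larva in a mixed state. FMt046875 with FMt019565 was on in 65 larvae with 1 mixed control larva. FMt046132 with FMt046134 was on in 79 with 2 mixed larvae.

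Within groups the levels in on larvae moved together as well. The SD of the log2 ratio of 2 joined transcripts over the larvae with both on was smaller than the value unrelated levels of the same spread would give in 27 of 27 pairs. Pairs of the larger groups share transcripts, so the 27 are not separate cases. The same comparison was not made for members that were not joined, so whether it is particular to joined pairs was not tested. For FMt044216 and FMt044228 the SD of the log2 ratio was 0.13, against 0.71 for unrelated levels, over 62 larvae. For FMt039760 and FMt039759 it was 0.15 against 0.50 over 40 larvae, and for FMt007228 and FMt046178 it was 0.16 against 0.60 over 33 larvae. In the largest group the ratios were looser, with FMt041487 and FMt041488 at 0.57 against 0.96 over 35 larvae. Since both transcripts come from the same library, a shared error of scaling cancels in their ratio. It does enter the spread of each transcript and so the value for unrelated levels, and its part there was not tested.

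Some members had consecutive identifiers. A transcript with the next lower or next higher number was also a member for 12 of the 62, or 19.4%, against 0.259% of all 37085 transcripts that have a member next to them. Within 10 numbers the shares were 30.6% of members and 2.29% of all transcripts. Of the 27 joined pairs, 5 were 1 number apart, and 9 were within 10. Whether neighbouring numbers are neighbours in the genome, or similar in sequence, was not analysed here, and neither was the treatment of reads that match several transcripts.

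No pair of switches was complementary, in the sense of sharing at most 1 larva with both on, or at most 1 with both off, where the on-rates alone would give at least 15. At the same limits a nested relation, with 1 transcript on almost only where the other was on, occurred in 2 pairs, both with FMt043754. FMt043755 and FMt047537 were each on in 29 larvae, and in each of these FMt043754 was on too. The on-rates alone would put 17.5 larvae with FMt043755 on and FMt043754 off, and as many for FMt047537. FMt043754 was on in 55 larvae: in 26 together with FMt043755 only, in 26 with FMt047537 only, in 3 with both and in 0 with neither. All 3 were off in 84 larvae. FMt043754 and FMt043755 are consecutive identifiers, and FMt047537 is not near them. A lower limit on the number from the on-rates added FMt040344 with FMt044825. FMt040344 was on in 52 larvae, in each of which FMt044825 was on too. The on-rates alone would put 14.2 larvae with FMt040344 on and FMt044825 off.

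The level of FMt043754 differed between these classes of larvae. With FMt043755 alone it had a median of 5.89 CPM, from 4.20 to 14.1 CPM. With FMt047537 alone the median was 5.02 CPM, from 3.00 to 10.4 CPM. In the 3 larvae with both it had 9.40, 10.5 and 14.3 CPM, above the median of each other class, while the lowest of them was below the highest larva of each other class. In the 84 remaining larvae it had at most 0.0865 CPM. FMt043755 itself had a median of 3.98 CPM without FMt047537 and 3.87 CPM with it, and FMt047537 had a median of 12.8 CPM without FMt043755 and 11.7 CPM with it. These classes were defined from the levels, so no test applies.

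**Figure D3:**
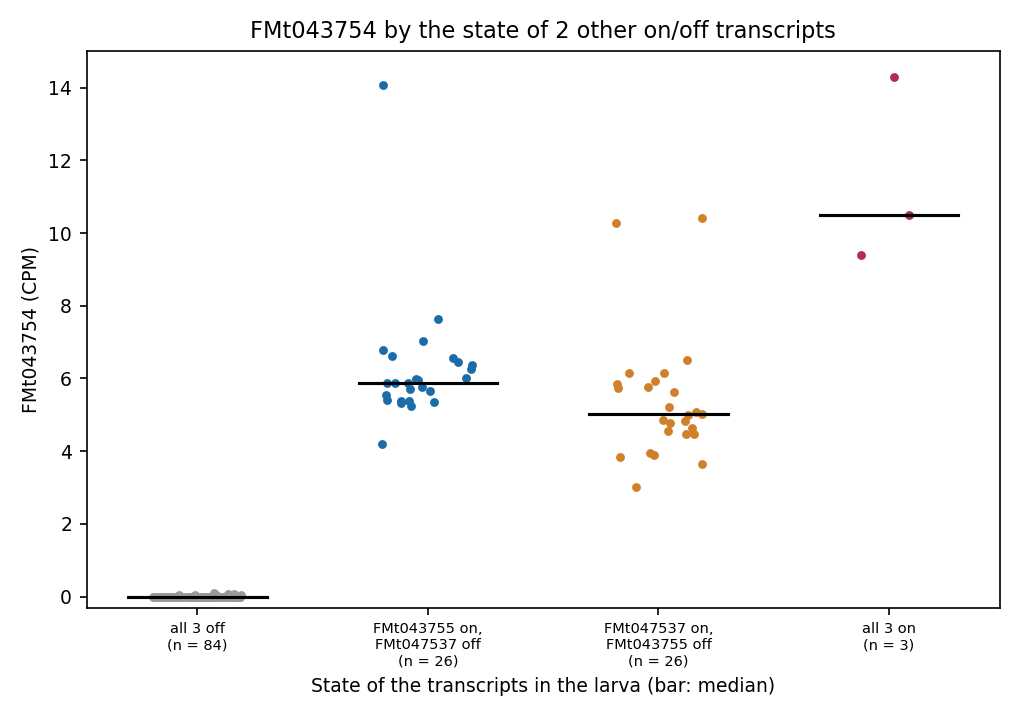
Level of FMt043754 in CPM (vertical axis) in each larva, one point each, split by whether FMt043755 and FMt047537 were on; bars are medians. The 3 larvae with all 3 on have a median of 10.5 CPM, against 5.89 and 5.02 CPM with only 1 of the others on, and the 84 larvae with both off lie at or near 0.

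The 2 partners were spread unequally over the experiments. FMt043755 without FMt047537 was seen in 5 larvae of experiment 1, 8 of experiment 2 and 13 of experiment 3. FMt047537 without FMt043755 was seen in 19 larvae of experiment 1, none of experiment 2 and 7 of experiment 3. FMt043754 was thus on in 26, 9 and 20 larvae.

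Each larva had its own combination. No pattern of states over the 45 switches occurred in more than 1 larva. Over so many switches a repeated pattern would be rare in any case, and no expected number was computed. A pair of larvae had the same state in 60.1% of the 45 switches on average, with a range of 12 to 43 switches. That average is fixed by the on-rates of the switches. Pairs from the same experiment agreed in 61.6% and pairs from different experiments in 59.4%. Such pairs share larvae, and the difference was not tested. The number of members on per larva averaged 29.0 ± 4.35 in experiment 1 (SD, n = 46), 27.8 ± 4.16 in experiment 2 (n = 46) and 30.1 ± 5.12 in experiment 3 (n = 47). By concentration it averaged 29.9 ± 5.01 in controls (SD, n = 29), 31.1 ± 4.69 under 0.12 ng/L (n = 17) and 27.6 ± 4.49 under 1.2 ng/L (n = 30). It averaged 27.8 ± 5.66 under 2.5 ng/L (n = 18), 28.6 ± 3.37 under 5 ng/L (n = 17) and 29.1 ± 3.80 under 10 ng/L (n = 28). These SDs are the spread of single larvae and are no measure of how far averages may differ, and the averages were not tested. Joined transcripts are counted singly, and the 2.5 ng/L group includes its replicate 7, with 13 members on. The 9 libraries under 0.5 times the median total had 22 to 34 members on, inside the range of the others.

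On-rates differed between experiments for 2 members. An exact test of the 2 states over the 3 experiments was run on all 37085 transcripts with Benjamini-Hochberg adjustment, and 54 passed an adjusted p of 0.05, or 0.146%. Transcripts that are on in every larva cannot pass, and 19881 occurred in both states, so the 62, which were picked for having many larvae in each state, had more room to differ than most. At an unadjusted p under 0.05 there were 29 members, with joined transcripts counted singly, and 3.09% of all transcripts.

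FMt044410 was on in 0 of 46 larvae of experiment 1, in 17 of 46 of experiment 2 and in 21 of 47 of experiment 3 (exact test, p = 3.11e-08, adjusted p = 0.000231). Its highest level in experiment 1 was 0.548 CPM. When on it lay at 4.91 to 15.3 CPM with a median of 7.52 CPM in experiment 2, and at 5.93 to 14.7 CPM with a median of 8.94 CPM in experiment 3. No larva of experiment 1 was on, so the on larvae of the later experiments were above all larvae of experiment 1 by definition. That order adds no evidence to the on-rates.

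FMt047537 was on most often in experiment 1: it was on in 21 of 46 larvae of experiment 1, 1 of 46 of experiment 2 and 7 of 47 of experiment 3 (exact test, p = 4.06e-07, adjusted p = 0.00176). Its on levels had a median of 11.8 CPM in experiment 1 and 14.6 CPM in experiment 3, and the single on larva of experiment 2 had 12.3 CPM. At 0.12 ng/L it was on in 5 of 5 larvae of experiment 1, 0 of 6 of experiment 2 and 1 of 6 of experiment 3, against 2 of 10, 0 of 9 and 1 of 10 controls (exact stratified test, p = 0.0230, adjusted p = 1). Both calls also held without replicate 7 of the 2.5 ng/L group.

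FMt036173, the member with the highest on-rate, came next (exact test, p = 0.000243, adjusted p = 0.104). It was on in 46 of 46 larvae of experiment 1, 35 of 46 of experiment 2 and 44 of 47 of experiment 3, and was at most 0.0861 CPM when off. This difference did not pass the adjustment.

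**Figure D4:**
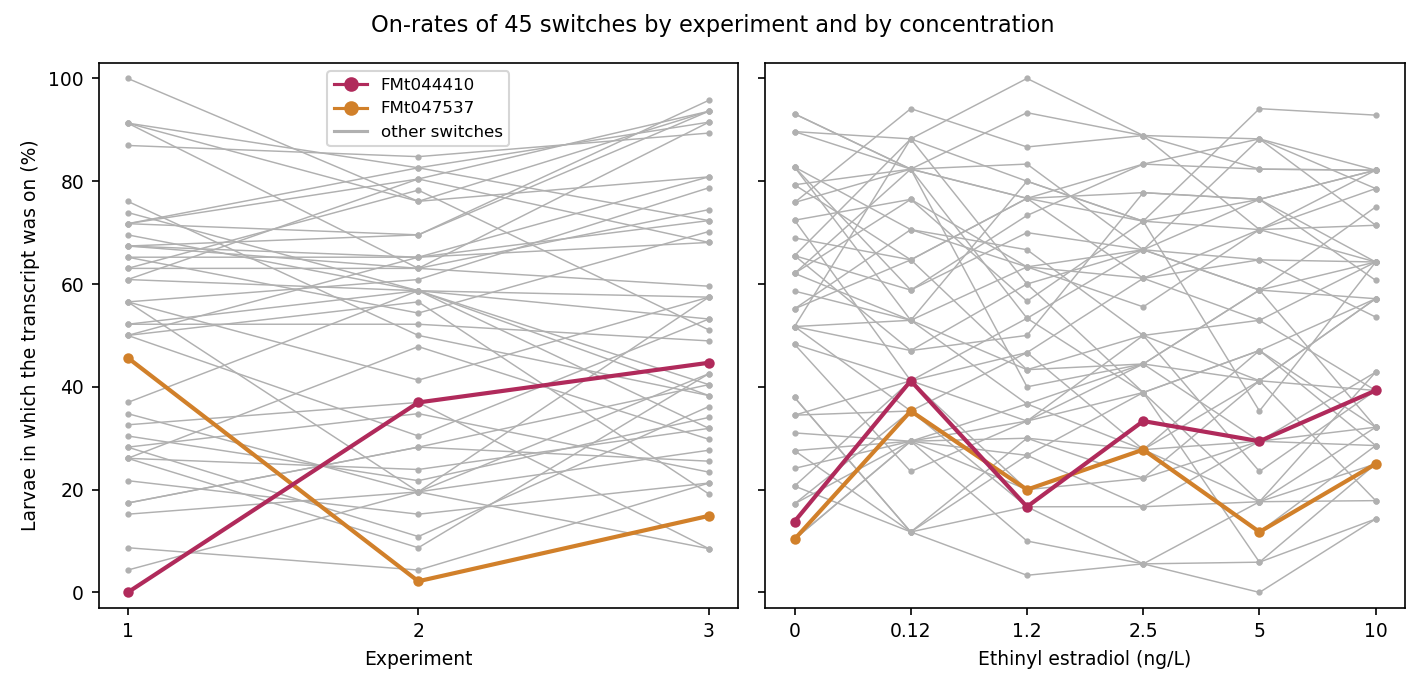
Share of larvae in which each of the 45 switches was on (vertical axis, %), by experiment on the left and by ethinyl estradiol concentration (0 is the control) on the right; each line is 1 switch, with a group of joined transcripts drawn once. FMt044410 runs from 0 of 46 larvae in experiment 1 to 21 of 47 in experiment 3 and FMt047537 from 21 of 46 to 7 of 47, and no switch passed the test at any concentration.

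The count levels gave more calls between experiments than the on-rates did. In edgeR's quasi-likelihood test with concentration group and experiment as terms, 3695 of 35340 transcripts tested, or 10.5%, differed over the 3 experiments at an adjusted p of 0.05. All 62 members passed the filter on low counts, and 15 of them, or 24.2%, were called. At an unadjusted p under 0.05 there were 23 members, or 37.1%, against 24.7% of all transcripts tested, with joined transcripts counted singly. The 15 stand for 9 switches, because 8 of them belong to 2 groups: the 5 transcripts of the largest group and the 3 of the third group. Without replicate 7 of the 2.5 ng/L group 16 members were called, among 4353 of all transcripts.

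FMt044410 and FMt047537 had the smallest p-values (edgeR, adjusted p = 5.87e-09 and 3.09e-06). FMt041488 followed (edgeR, adjusted p = 0.00262). Its whole group was on in 13 larvae of experiment 1, 5 of experiment 2 and 17 of experiment 3. FMt041487, for which 12 CPM was the on median in experiment 1, had on medians of 8.70 and 9.47 CPM in experiments 2 and 3. The third group was on in 4, 2 and 10 larvae, and 5 of its 10 on larvae in experiment 3 came from the 6 larvae at 0.12 ng/L of that experiment. In the other groups of experiment 3 it was on in 1 of 10 controls, 1 of 10 larvae of the 1.2 ng/L group, 1 of 6 exposed to 2.5 ng/L, 0 of 6 exposed to 5 ng/L and 2 of 9 exposed to 10 ng/L.

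Against control, no member was called at any concentration. In edgeR's test 0 members passed at 0.12 ng/L, where 0% of all transcripts passed, and 8 members had an unadjusted p under 0.05 (12.9%, against 4.08% of all). Joined transcripts are counted singly in these shares, so they do not count separate switches. The 8 were the 5 of the largest group, FMt039760 with FMt039759, and FMt009977. At 1.2 ng/L 0 members passed against 0.0113% of all, with 3 members at an unadjusted p under 0.05 (4.84%, against 2.99% of all). The 3 were FMt016494, FMt047537 and FMt009977. FMt016494 at 1.2 ng/L had the smallest p of any member against control in edgeR's test. Its log2 difference was -3.89 (edgeR, p = 2.94e-05, adjusted p = 0.170). At 2.5 ng/L 0 members passed against 2.69% of all, with 2 members unadjusted (3.23%, against 19.2% of all). There the background depended on replicate 7 of the 2.5 ng/L group, since 951 transcripts passed with it and 5 without it. At 5 ng/L 0 members passed against 0.0141% of all, with 11 members unadjusted (17.7%, against 6.34% of all). Of these 11, only FMt014483 and FMt016494 were not joined. The others were the third group, FMt009977 with FMt036284, FMt046875 with FMt019565, and FMt041487 with FMt041488. At 10 ng/L 0 members passed against 0.158% of all, with 1 member unadjusted (1.61%, against 5.95% of all). DESeq2 called 2 members at 5 ng/L, FMt028371 (adjusted p = 0.00921) and FMt045757 (adjusted p = 0.00997), and 0 members at each other concentration. The 5 transcripts with the smallest p-values at 10 ng/L included 0 members.

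The on-rates gave no call against control either. In an exact test stratified by experiment, 0 members passed at each concentration. The share of all 37085 transcripts that passed was 0% for 0.12 ng/L, 0% for the 1.2 ng/L group, 0.0027% for the 2.5 ng/L group, 0.0108% for the 5 ng/L group and 0.0108% for the 10 ng/L group. At an unadjusted p under 0.05 there were 3, 3, 2, 5 and 2 members in the same order, or 4.84%, 4.84%, 3.23%, 8.06% and 3.23% of them, against 0.569%, 0.44%, 1.42%, 0.693% and 0.507% of all transcripts, most of which had less room to differ. Joined transcripts are counted singly here too: FMt009977 with FMt036284 stood among them at 1.2 and 5 ng/L, and FMt046875 with FMt019565 at 5 ng/L. Without replicate 7 of the 2.5 ng/L group, 0 members were under 0.05 at 2.5 ng/L, against 0.742% of all. The smallest p among members was that of FMt046875 at 5 ng/L (exact test, p = 0.000579, adjusted p = 1), on in 3 of 17 larvae against 21 of 29 controls. It was on in 7 of 17 larvae given 0.12 ng/L, 16 of 30 given 1.2 ng/L, 7 of 18 given 2.5 ng/L and 12 of 28 given 10 ng/L. Each rate was below control, without following the order of concentration. The exact test also gave it an unadjusted p of 0.0328 at 2.5 ng/L, with replicate 7, and 0.0353 at 10 ng/L. FMt009977 with FMt036284 went the other way, on in 3 of 29 controls. In order of concentration the pair was on in 5 of 17, 11 of 30, 5 of 18, 8 of 17 and 8 of 28 exposed larvae. A p that misses the threshold does not show equal rates, and with 17 larvae in the smaller groups only wide differences could pass an adjustment over 37085 transcripts.

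The third group had the lowest on-rate of the 11 joined groups. FMt028371 was on in 3 of 29 controls, 5 of 17 larvae given 0.12 ng/L, 3 of 30 given 1.2 ng/L, 1 of 18 given 2.5 ng/L, 0 of 17 given 5 ng/L and 4 of 28 given 10 ng/L. In the group given 5 ng/L its highest level was 0.443 CPM, against a highest of 44.2 CPM in controls. In edgeR's test the log2 difference from control at 5 ng/L was -4.22 ± 1.24 (SE, adjusted p = 0.692), and that of FMt045757 was -6.53 ± 1.82 (SE, adjusted p = 0.538). These SEs are approximate: each is the size of the difference over the square root of its F value, and not a separate estimate. The group was on in 3 of 29 controls, so these differences rest on 3 control larvae.

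Over all 6 groups in 1 test, 114 of 35340 transcripts, or 0.323%, were called by edgeR, and 1 of them was a member, FMt016494 (adjusted p = 0.0453). It was on in 6 of 29 controls, 2 of 17 larvae given 0.12 ng/L, 1 of 30 given 1.2 ng/L, 1 of 18 given 2.5 ng/L, 1 of 17 given 5 ng/L and 4 of 28 given 10 ng/L. The on controls lay between 11.6 and 16.8 CPM. The on larvae given 0.12 ng/L lay at 5.89 and 10.4 CPM, the single ones given 1.2, 2.5 or 5 ng/L at 9.08, 11.7 and 8.34 CPM, and those given 10 ng/L between 6.79 and 16.3 CPM. When replicate 7 of the 2.5 ng/L group was left out, the adjusted p was 0.0893 and no member was called. FMt045757 and FMt045756 came next (edgeR, adjusted p = 0.0787 and 0.0991).

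Levels among on larvae varied within each member. The interquartile range of log2 CPM in on larvae had a median of 0.80 over the 62 members, from 0.25 to 2.12. The highest on larva was 1.91 to 23.7 times as high as the lowest. The 23 members on in under 30% of larvae had a median interquartile range of 0.51. The 19 members on in 30 to 60% had 0.84, and the 20 on in 60% or more had 0.88. These classes were not selected alike, because the limits are fractions of q, and q sits at a different place among the on levels depending on the on-rate: FMt016494 had q of 6.07 CPM against an on median of 11.6 CPM, and FMt036173 had q of 7.65 CPM against an on median of 4.37 CPM. The part of this in the different spreads was not tested.

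The narrowest on levels were those of FMt043755, at 2.73 to 7.17 CPM with an interquartile range of 0.25, and of the joined FMt039760 and FMt039759, with 0.29 and 0.32. Of the 40 on larvae of FMt039760, 14 lay up to 0.5 below its median on the log2 scale and 20 up to 0.5 above. FMt039924 had the smallest full range, with its highest on larva 1.91 times its lowest.

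The widest was FMt044816, with an interquartile range of 2.12. It was on in 36 larvae at 0.639 to 9.33 CPM and its highest off larva had 0.560 CPM, so its lowest on larvae were barely apart from the off state. In experiment 1 its 12 on larvae lay between 0.687 and 2.42 CPM with a median of 1.17 CPM, and in experiment 2 its 4 on larvae lay between 6.31 and 9.33 CPM, with no overlap. In experiment 3 its 20 on larvae ran from 0.639 to 8.06 CPM. FMt044816 was named for its wide spread, and members with such a split between experiments were not counted. FMt045981, the next widest at 1.38, had 19.3 to 336 CPM over 48 on larvae, and FMt046875 followed at 1.24.

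A second level among on larvae was looked for as the widest gap between neighbouring on larvae. It reached 1 on the log2 scale in 1 member, FMt036284, where a gap of 1.43 set 1 larva below the others. FMt030661, chosen after its values were seen, had an uneven distribution without a gap: of its 114 on larvae, 47 lay from 0.5 below its median up to the median on the log2 scale, 17 from the median to 0.5 above, and 37 from 0.5 to 1 above. Its on medians were 4.34 CPM in experiment 1, 4.54 CPM in experiment 2 and 5.25 CPM in experiment 3.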

How the data were processed

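RNA from single whole larvae was made into libraries from 250 ng with the SENSE mRNA-Seq V2 kit, per the labels' protocols. Reads were mapped against known fathead minnow transcripts, per the labels, and the authors deposited 1 table of raw counts per transcript and library. The submitters' processing notes name bcl2fastq 2.19.1, limma 3.40.6 and edgeR 3.26.8; the sources used here do not give the aligner, the counter or the version of the transcript set. A row without an identifier (1.64e-05% of the reads, at most 13 in a library) was not used.

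CPM was the count over the column sum times 1000000, with no pseudocount. Counts were tested with edgeR 4.0.16 in R 4.3.3 (quasi-likelihood F test, TMM scaling, filterByExpr, group plus experiment, all libraries, Benjamini-Hochberg over all transcripts tested, threshold 0.05), with DESeq2 1.42.0 as an alternative. States were tested with exact tests: over experiments by the Freeman-Halton extension of Fisher's test, and for each concentration against control by a conditional test stratified by experiment, both two-sided and over all 37085 transcripts. Both procedures were run on simulated data. For edgeR the simulated counts had no on/off pattern, so that run does not cover transcripts such as the members.

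The members, groups and lists were chosen with earlier results of these data known. Named transcripts followed a written rule: the 10 highest q, the 5 widest separations, up to 4 from each of the 4 largest groups, nested pairs, the 3 smallest p-values over experiments and over groups, the 3 highest and lowest on-rates, the 3 widest and narrowest on levels and the 3 on each side of the limit for larvae between; others were chosen after their values were seen. Replicate numbers in the labels recur across groups. Intervals were not computed for shares of larvae, and p-values cover the spread between libraries.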

Additional observations from a re-analysis of the deposited data

How the results depend on the processing

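The 62 transcripts depended on the limits of the rule: q of at least 10 CPM left 27 and a limit of 5% between the states left 38. The 10 other settings gave 50 to 80. The number of joined members (26 to 30) and of nested pairs (2 or 3) stayed near the values given above of 28 and 2. Over the 3 experiments, edgeR called 9 members at an adjusted p of 0.01 (1766 of all transcripts). It called 12 members without experiment 1 (866 of all), 5 without experiment 2 (2642 of all) and 9 without experiment 3 (1725 of all), against 15 (3695 of all) with every experiment; these fits hold fewer larvae and compare only 2 experiments. The on-rate test over experiments called 4 members with on above 0.25q (117 of all transcripts, 0.315%), against 2 (54 of all, 0.146%). FMt044410 and FMt047537 kept their on-rate calls in 4 of 4 settings. Their calls on count levels held in 7 of 8 settings, 1 of the 8 being DESeq2 and the others edgeR. The exceptions were edgeR fits, with an adjusted p of 0.596 for FMt044410 without experiment 1 and of 0.147 for FMt047537 without experiment 2.

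The call of FMt016494 over the 6 groups was fragile. Over the 6 groups edgeR called 0 members at an adjusted p of 0.01 (25 of all transcripts). It called 0 without replicate 7 of the 2.5 ng/L group (37 of all). It called 0 without experiment 1 (17 of all) and 0 without experiment 2 (141 of all). With no experiment term it called 2 (137 of all), the joined FMt045757 and FMt045756 (edgeR, adjusted p = 0.0410 and 0.0377). In 3 settings the 1 member called was FMt028371 in place of FMt016494. The first left out the 9 libraries under 0.5 times the median total (edgeR, adjusted p = 0.0187, 45 of all called). The others were the edgeR fit without experiment 3 (adjusted p = 0.0323, 26 of all) and DESeq2 (adjusted p = 0.0212, 300 of all). FMt016494 itself passed in 2 of the 9 settings that gave it an adjusted p, which ran from 0.0383 to 0.690, and the cause was not tested. In a fit with fewer larvae a member can fail the filter on low counts, and it cannot then be called. Against control, 1 member was called at 2.5 ng/L (FMt028371) without the 9 libraries under 0.5 times the median total, among 998 of all transcripts. DESeq2 called 2 at 5 ng/L, among 11 of all. The other settings gave 0 members at each concentration.

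With the replicate number as a block in place of the experiment, 0 members were called over the 6 groups and 0 at each concentration. Deviations of larvae with the same number had a median correlation of -0.016, against -0.016 for other pairs of the same experiment, and 16 larvae correlated best with their own number, so the numbers give no pairing.

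A count of 0 in an off larva does not show absence, least of all in the shallowest libraries. No sequence or name of a transcript was used, and the vessel and the parents of each larva are not stated.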
